A study of Homo sapiens with 12 samples.

Results

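Transcripts of the voltage-gated and potassium ion channels were examined in SK-N-BE2 and NGP, established neuroblastoma cell lines. The set was chosen by gene symbol, taking every KCN, SCN (pore and beta subunits), CACN and HCN symbol in the count files. Of 19923 genes, 141 matched, and 93 reached a mean of 1 CPM (counts per 1000000 reads, with library sizes scaled by TMM) or more in at least 1 of the 4 groups. Those 93 were analysed here. Another 48 matching genes stayed under that level, 10 of them with 0 reads in all 12 libraries. Just inside the limit were KCNF1 and CACNA1A, whose highest group means were 1.05 and 1.07 CPM. Just outside were SCN4B, KCNE4 and KCNC2, at 0.886, 0.854 and 0.745 CPM.

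Polyadenylated RNA was sequenced after 6 days with STM2457 or with DMSO, the solvent control. The compound is an inhibitor of METTL3, the catalytic subunit of the writer that puts N6-methyladenosine on messenger RNA. Both lines carry amplified MYCN and were labelled wild type. The dose was 12 µM for SK-N-BE2 and 1 µM for NGP, and each line had 3 replicate libraries with STM2457 and 3 with DMSO. Each line is a single culture line, and no label says that replicates came from separate cultures, so p-values measure the spread between these libraries, which may be technical.

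Ion channels set the electrical behaviour of a cell. Potassium channels hold or restore the resting potential, sodium channels carry the upstroke of the action potential, calcium channels couple depolarisation to secretion and transcription, and HCN channels give a slow pacemaker current. Most channels join a pore subunit with auxiliary subunits that set its surface level and gating. Neuroblastoma arises from the sympathetic lineage, whose mature neurons use N-type calcium channels, M-current potassium channels and several sodium channels.

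The deposited counts summed to between 47242379 and 58159937 reads per library. In both lines 9 of the 10 adrenergic neuroblastoma markers reached 1 CPM in every group, and TH stood at 0.512 CPM in NGP with DMSO. METTL3, the target of the drug, rose in SK-N-BE2 from 54.0 ± 3.26 to 79.5 ± 1.43 CPM and in NGP from 40.4 ± 3.59 to 77.7 ± 2.46 CPM (SD, n = 3). NGP DMSO replicate 1 stood apart from the other DMSO libraries of NGP, with a chi-square per degree of freedom of 92.6 against replicate 2, where NGP STM2457 replicates 1 and 3 gave 2.77. The counts of called genes in NGP are therefore given also without it. Per the file headers the lines were handled as separate sets, and what separates these sets is not stated. Line and any batch that follows it cannot be told apart in any comparison between the lines. Nor can dose where their responses are compared.

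With DMSO, 73 of the 93 genes reached 1 CPM in SK-N-BE2 and 77 in NGP. Of these, 61 did so in both lines, 12 in SK-N-BE2 alone and 16 in NGP alone, and 4 reached it in neither. Levels of different genes were compared only as RPKM, which divides the CPM by the exon length in kilobases. In SK-N-BE2 the highest level belonged to KCNH2, the pore of the rapid delayed rectifier of heart, at 57.5 ± 4.07 RPKM (SD, n = 3). It was followed by KCNJ8, an ATP-sensitive inward rectifier, at 52.9 ± 8.0 RPKM and CACNG4, a gamma subunit that also accompanies glutamate receptors, at 52.4 ± 0.761 RPKM. The KCNJ8 libraries overlapped those of both other genes, all KCNH2 libraries lay above all CACNG4 libraries, and all 3 genes lay above KCNK3, a leak channel, at 19.4 ± 1.62 RPKM.

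In NGP the order was another one. KCNG1, a silent subunit that forms no channel alone and modifies Kv2 pores, stood highest at 63.2 ± 9.51 RPKM, followed by KCNH2 at 36.8 ± 3.49 and CACNG4 at 23.6 ± 1.59 RPKM. For each of these 3 genes all libraries lay above those of the next gene. CACNA2D1, an alpha2delta subunit that carries calcium channels to the membrane, and CACNA1B, the N-type pore, followed at 18.6 ± 4.51 and 17.5 ± 3.02 RPKM with overlapping libraries. Further high members were SCN3B, CACNA2D2 and KCNG1 in SK-N-BE2, with mean levels of 12.9, 11.8 and 10.2 RPKM, and CACNA1H, KCNQ5 and KCNJ8 in NGP, with 10.4, 9.97 and 9.56 RPKM. Within each of these triplets, neighbours in the order had overlapping libraries. Summed over the 93 genes, the level with DMSO was 372 to 393 RPKM per library in SK-N-BE2 and 349 to 358 RPKM in NGP.

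**Figure D1:**
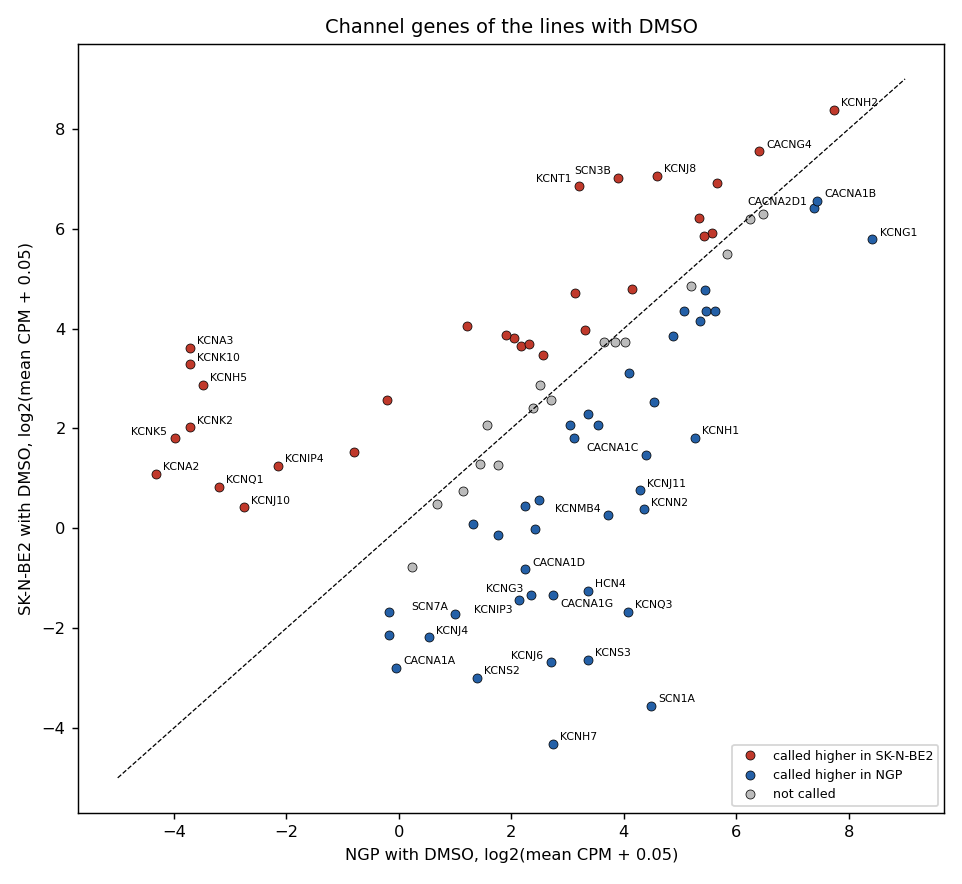
Mean level of the channel genes described here with DMSO in NGP (horizontal axis) and SK-N-BE2 (vertical axis), as log2 of the mean CPM plus 0.05. Red points were called higher in SK-N-BE2, blue points higher in NGP and grey points in neither, and the dashed line marks equal levels. KCNA2, KCNA3, KCNK10, KCNK5 and KCNH5 are among the points at the left edge, near or at 0 in NGP, and KCNH7, SCN1A, KCNS3 and KCNQ3 lie at the lower right.

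The baseline comparison set SK-N-BE2 DMSO against NGP DMSO. Of the 93 genes, 32 were called higher in SK-N-BE2 and 43 higher in NGP at an adjusted edgeR p under 0.05, where 64.8% of all 14336 genes tested were called. Over all genes tested 33.0% were called higher in SK-N-BE2 and 31.8% higher in NGP. Among all genes at the same minimum level 65.7% were called, 33.0% and 32.7%. The median log2 difference, SK-N-BE2 minus NGP, was -0.33 over the channel genes and 0.01 over all genes tested. A gene is kept here through its highest group, so a share above the background is partly set by the choice of members. Over all 105 matching genes tested, 34 were higher in SK-N-BE2 and 46 higher in NGP.

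Several genes were near a presence or absence between the lines. KCNA2, a Kv1 pore of axons, measured 2.38, 2.13 and 1.72 CPM in SK-N-BE2 with DMSO and had 0 reads in every NGP DMSO library. A fragment can count as 2 reads here, so the limit that a count of 0 allows was taken as 3 fragments, or 6 reads, over the 3 libraries of a group. Against that limit KCNA2 was at least 53.2-fold higher in SK-N-BE2. KCNH7, an ether-a-go-go pore close to KCNH2, showed the reverse, with 3.02, 7.49 and 9.35 CPM in NGP against 0 reads in SK-N-BE2, at least 176-fold more in NGP. KCNK5, an acid-sensitive leak channel, had 542 reads in SK-N-BE2 and 2 in NGP, a ratio of 260 with a 95% Poisson interval of 46.3 to 10319 when 2 reads are taken as 1 fragment. Such limits and intervals cover counting error only.

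Other leak and Kv genes were likewise held mainly by SK-N-BE2. KCNA3, a Kv1 pore known from lymphocytes, measured 13.9, 8.94 and 13.9 CPM there against 0.0397, 0.0391 and 0 CPM in NGP. KCNK10 and KCNK2, mechanosensitive leak channels, stood at 9.69 ± 0.936 and 4.0 ± 0.437 CPM in SK-N-BE2 and at 0.0259 ± 0.0449 and 0.0262 ± 0.0227 CPM in NGP (SD, n = 3). For each of these 3 genes the libraries of the lines did not overlap. KCNH5, an ether-a-go-go pore, and KCNQ1, the slow delayed rectifier pore, followed at 7.26 ± 0.986 and 1.73 ± 0.0201 CPM against 0.0390 ± 0.0389 and 0.0588 ± 0.0193 CPM in NGP. Within the inward rectifiers, KCNJ8 (133 ± 20.1 against 24.0 ± 2.29 CPM) was also higher in SK-N-BE2, with a log2 difference of 2.48 ± 0.15 (SE, adjusted edgeR p 2.04e-07). Exons of KCNJ8 share 10.7% of their length with another gene, so its value is uncertain.

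Most of the voltage-gated calcium pores kept here stood higher in NGP. Of 7 calcium pore genes, 6 were called higher in NGP and 0 higher in SK-N-BE2. Over all genes tested the shares were 31.8% and 33.0%. CACNA1D, CACNA1G, CACNA1A and CACNA1F reached 1 CPM only in NGP groups, so this count is partly set by the choice of members. Over all 8 matching calcium pore genes tested, 6 were called higher in NGP and 0 in SK-N-BE2. CACNA1C, an L-type pore, measured 3.37, 1.77 and 3.0 CPM in SK-N-BE2 and 18.6, 22.1 and 22.3 CPM in NGP, a log2 difference of -2.94 ± 0.24 (SE, adjusted edgeR p 1.75e-06). CACNA1G, a T-type pore, measured 0.420, 0.242 and 0.382 CPM in SK-N-BE2 and 7.35, 6.22 and 6.42 CPM in NGP. All NGP libraries lay above all SK-N-BE2 libraries for both. CACNA1B, CACNA1D, CACNA1A and CACNA1F had log2 differences of -0.87, -3.16, -3.23 and -1.64 (adjusted edgeR p from 4.39e-06 to 0.0104). The CACNA1F call was lost without NGP DMSO replicate 1 (adjusted edgeR p 0.0538). CACNA1H, the other T-type pore kept here, was not called (-0.17, adjusted edgeR p 0.37).

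Silent Kv subunits leaned the same way, all 5 kept here being called higher in NGP, where 31.8% of all genes tested were. KCNS3, KCNG3 and KCNS2 reached 1 CPM only in NGP groups, so this count too is partly set by the choice of members. Over all 6 matching silent subunits tested, 5 were called higher in NGP and 1 was not called. KCNS3 measured 0.140, 0.0403 and 0.153 CPM in SK-N-BE2 and 11.1, 9.96 and 9.68 CPM in NGP, and KCNS2 measured 0.105, 0.121 and 0 CPM and 2.50, 2.35 and 2.82 CPM. The libraries of the lines were apart for both. Among sodium pores, SCN1A, the main sodium pore of inhibitory neurons, had 6 reads in 1 SK-N-BE2 DMSO library and 0 in the other two, and measured 17.1, 24.6 and 25.3 CPM in NGP. SCN9A, a pore of sympathetic and sensory neurons, was higher in SK-N-BE2 (1.41, adjusted edgeR p 0.000632), and SCN2A and SCN8A were not called (adjusted edgeR p 0.66 and 0.18).

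Members of several other families were also higher in NGP. KCNQ3, a subunit of the M-current channel, measured 0.280, 0.201 and 0.306 CPM in SK-N-BE2 and 10.8, 20.6 and 19.0 CPM in NGP. HCN4, the pacemaker pore of the sinus node, measured 0.280, 0.564 and 0.268 CPM in SK-N-BE2 and 9.73, 10.4 and 10.5 CPM in NGP. KCNJ6, a G-protein-gated inward rectifier, measured 0.0874, 0 and 0.229 CPM in SK-N-BE2 and 5.92, 6.77 and 6.63 CPM in NGP. For KCNQ3, HCN4 and KCNJ6 every NGP library exceeded every SK-N-BE2 library.

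The treatment comparisons use the same DMSO libraries as the baseline comparison, so their values are not independent of it. The first asked how the channel genes changed in SK-N-BE2 with 12 µM STM2457. Of the 93 genes, 87 had enough reads to test, 29 were called higher and 21 lower with STM2457, and 37 were not called. Over all 14013 genes tested 54.7% were called, 26.9% higher and 27.8% lower. Among all genes at the same minimum level it was 56.9% (28.3% higher, 28.5% lower), so the 57.5% called among the channel genes lay near the background. The median log2 fold change was 0.05 over the channel genes and -0.02 over all genes tested. Over all 98 matching genes tested, 31 were called higher and 23 lower. In bulk RNA, fewer cells of a type and less RNA per cell cannot be told apart. Fibroblast markers (COL1A1, COL1A2, DCN, LUM and PDGFRB, of which 4 of 5 reached 1 CPM and COL1A2 stayed near 0) summed to 105 to 120 CPM with DMSO and 191 to 205 CPM with STM2457 in this line, and their part in the result was not tested.

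In NGP with 1 µM STM2457 the channel genes leaned to lower levels. Of 84 genes tested, 9 were called higher and 35 lower, and 40 were not called. Over all 13610 genes tested 41.7% were called, 19.4% higher and 22.2% lower, and among genes at the same minimum level 43.0%, with 20.0% higher and 22.9% lower. Over all 94 matching genes tested, 10 were called higher and 38 lower. The median log2 fold change was -0.24 over the channel genes and -0.03 over all genes tested. Without NGP DMSO replicate 1 the counts were 12 higher and 41 lower. Without STM2457 replicate 1 or 3 the count of higher genes was 5, and the count of lower genes ran from 29 to 41 over the 6 fits that left out a library. Fibroblast markers, with 3 of 5 at 1 CPM with DMSO and 4 of 5 with STM2457, summed to 56.8 to 69.8 CPM with DMSO and 275 to 309 CPM with STM2457, and their part in the result was not tested. Cardiac or skeletal muscle markers, with 2 of 7 at 1 CPM with DMSO and 1 of 7 with STM2457, summed to 5.65 to 13.3 CPM with DMSO and 2.73 to 3.89 CPM with STM2457, without overlap. Among them TNNT2 had a mean of 5.69 CPM with DMSO and 1.93 CPM with STM2457, and MYH2 had 0 reads in both groups. The part of the muscle markers in the lower channel calls was not tested.

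Calls in both lines were made in the same direction for 20 genes and in opposite directions for 7, out of 78 channel genes tested in both. The shares were 25.6% and 8.97%, where 21.3% and 4.96% of all 12952 genes tested in both lines had such calls, and 22.0% and 5.08% of genes at the same minimum level. Higher in both were 7.69% of the channel genes and 10.8% of genes at that level, and lower in both 17.9% and 11.1%. The 6 genes higher in both included SCN1A, CACNA2D2, KCNC1, KCNMB4 and KCND1. The 14 lower in both included KCNC4, KCNT2, KCNK12, KCNJ3, KCNN2, KCNQ5, CACNA1B, KCNJ5, HCN4, KCNK6, KCNK15 and KCNG1. Another 20 of the 78 genes were called in neither line, and the matching share over all genes was not taken. The level summed over the 93 genes ran from 428 to 465 RPKM with STM2457 in SK-N-BE2, above the DMSO range given earlier, and from 240 to 268 RPKM in NGP, below it. These sums were not tested. In NGP KCNG1 gave 63.2 ± 9.51 RPKM of the sum with DMSO and 21.7 ± 7.63 RPKM with STM2457, and in SK-N-BE2 KCNH2 gave 57.5 ± 4.07 and 87.2 ± 7.51 RPKM (SD, n = 3).

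**Figure D2:**
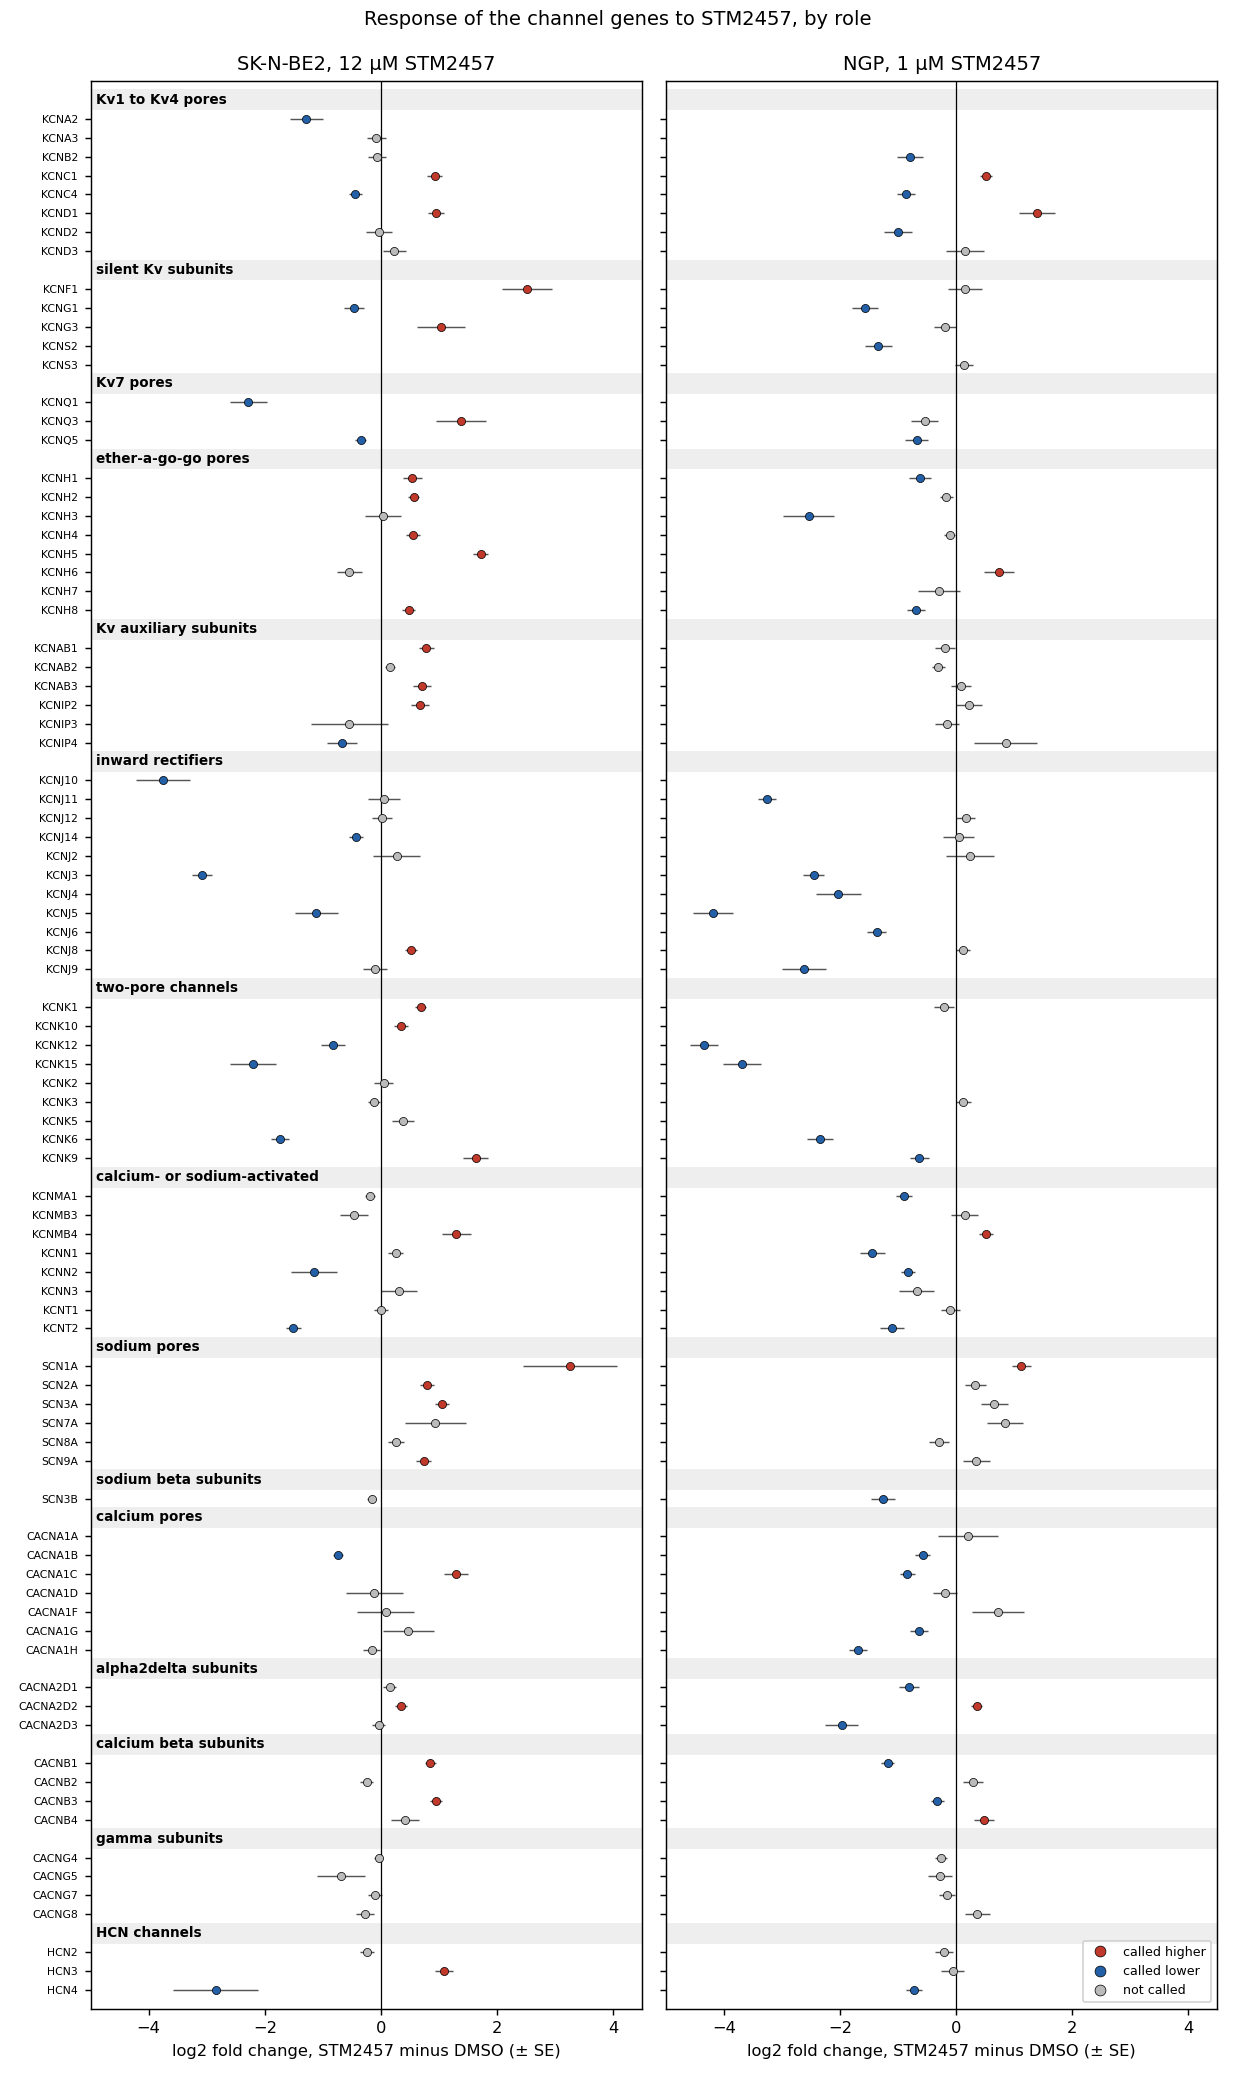
Log2 fold change of the channel genes described here, STM2457 minus DMSO, with its standard error, for SK-N-BE2 at 12 µM (left) and NGP at 1 µM (right). Genes are grouped by role, with red for called higher, blue for called lower and grey for not called, and genes without enough reads to test are left blank. Inward rectifiers and two-pore channels of NGP reach -2 and below, while the sodium pores shown for SK-N-BE2 lie to the right of 0.

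Inward rectifiers let potassium in more easily than out and stabilise the resting potential. In SK-N-BE2 1 of 9 tested was called higher and 4 lower, and in NGP 0 of 10 were called higher and 6 lower, with a median log2 fold change of -1.70 over the 10. Over all genes tested 26.9% were called higher and 27.8% lower in SK-N-BE2. In NGP these shares were 19.4% and 22.2%, with a median of -0.03. The family counts here and below were not tested against these shares. KCNJ3, the subunit shared by most G-protein-gated channels (chromosome 2, 154697855 to 154858354, plus strand), measured 11.2, 15.6 and 12.7 CPM with DMSO and 1.64, 1.41 and 1.73 CPM under STM2457 in SK-N-BE2. In NGP it measured 10.9, 14.4 and 11.9 CPM with DMSO and 2.43, 2.03 and 2.43 CPM under STM2457. All STM2457 libraries lay below all DMSO libraries in both lines, and with DMSO the libraries of the lines overlapped. KCNJ3 fell in SK-N-BE2, with a log2 fold change of -3.08 ± 0.17 (SE, adjusted edgeR p 1.35e-08), and in NGP, with -2.46 ± 0.18 (SE, adjusted edgeR p 3.13e-05). The difference between the responses was not called (-0.61, adjusted edgeR p 0.0713).

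The promoter of KCNJ3 is shown as 1 of 4 from genes that changed in the same direction in both lines without overlap, KCNJ3, KCNK6 and KCNT2 lower and KCND1 higher. These windows come from RefSeq on GRCh38.p14, run from 250 bases before to 50 bases after the annotated start, and are written 5′ to 3′ on the strand of the gene. Capitals mark matches to 4 motifs searched on both strands, GGGCGG (the GC box bound by Sp1), CACGTG (the E-box bound by MYCN and its partner MAX), TGATGCAA (a composite element of ATF4 and C/EBP factors) and TGACGTCA (the cyclic AMP element). No matches overlap one another in the windows shown. The KCNJ3 window lies at chr2:154698445-154698744 (plus strand) and holds a GC box, as CCGCCC, at base 243.
KCNJ3: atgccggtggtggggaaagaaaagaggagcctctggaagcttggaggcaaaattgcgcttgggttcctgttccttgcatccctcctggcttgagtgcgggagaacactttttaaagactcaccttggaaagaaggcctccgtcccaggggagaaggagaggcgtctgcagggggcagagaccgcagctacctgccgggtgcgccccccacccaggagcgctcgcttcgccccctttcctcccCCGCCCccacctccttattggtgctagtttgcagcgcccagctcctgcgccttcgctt

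The other G-protein-gated subunits changed mainly in NGP. KCNJ5, the partner of KCNJ3 in heart and also a channel of the adrenal cortex, measured 4.80, 6.28 and 4.90 CPM with DMSO and 0.235, 0.171 and 0.473 CPM under STM2457 there, a log2 fold change of -4.18 ± 0.35 (SE, adjusted edgeR p 5.76e-05). In SK-N-BE2 it measured 1.15, 1.01 and 0.650 CPM with DMSO and 0.332, 0.430 and 0.571 CPM under STM2457, also called lower (-1.11, adjusted edgeR p 0.0218). This weaker of the 2 calls was lost without DMSO replicate 1 or 2 or STM2457 replicate 1 or 2 (adjusted edgeR p up to 0.089). KCNJ9, a subunit that pairs with other G-protein-gated pores, measured 2.98, 3.36 and 2.39 CPM with DMSO and 0.342, 0.300 and 0.789 CPM under STM2457 in NGP (-2.62, SE 0.38, adjusted edgeR p 0.000958). In SK-N-BE2 its libraries overlapped, at 5.58, 3.56 and 3.36 CPM with DMSO and 4.54, 3.75 and 3.64 CPM under STM2457 (-0.11, adjusted edgeR p 0.683). KCNJ6, the neuronal member, fell in NGP from 5.92, 6.77 and 6.63 to 2.52, 2.31 and 2.76 CPM (-1.37, adjusted edgeR p 0.000396) and had too few reads to test in SK-N-BE2.

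ATP-sensitive channels join KCNJ11 or KCNJ8 pores with the sulfonylurea receptors ABCC8 and ABCC9. KCNJ11 (chromosome 11, 17385859 to 17389331, minus strand) measured 22.3, 17.1 and 19.0 CPM with DMSO and 2.09, 2.18 and 1.91 CPM under STM2457 in NGP, a log2 fold change of -3.26 ± 0.16 (SE, adjusted edgeR p 4.78e-06). With STM2457 the NGP libraries reached the range of SK-N-BE2, where KCNJ11 measured 1.40, 1.77 and 1.76 CPM with DMSO and 1.62, 1.21 and 2.40 CPM under STM2457 and was not called (0.05, adjusted edgeR p 0.886). KCNJ8 rose in SK-N-BE2 from 121, 156 and 121 to 201, 194 and 192 CPM (0.52, adjusted edgeR p 0.000764) and had no call in NGP (0.11, adjusted edgeR p 0.473). KCNJ10, the main potassium-buffering pore of glia, measured 1.05, 1.83 and 0.975 CPM with DMSO and 0.0739, 0.137 and 0.0761 CPM under STM2457 in SK-N-BE2, a log2 fold change of -3.76 ± 0.47 (SE, adjusted edgeR p 1.94e-05). It was at 0.0981 ± 0.0705 CPM in NGP with DMSO, too low to test there. The Schwann and glia markers summed to 3.01 to 5.15 CPM with DMSO and 2.95 to 3.32 CPM with STM2457 in SK-N-BE2, and their part in this was not tested. KCNJ4 was called lower in NGP (-2.03, adjusted edgeR p 0.0036), with 12.6% of its exon length shared with another gene, and KCNJ14 lower in SK-N-BE2 (-0.43, adjusted edgeR p 0.00723), with 30.6% shared. KCNJ2 and KCNJ12 were called in neither line, and KCNJ12 is uncertain because KCNJ18 is a near-identical copy of it.

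**Figure D3:**
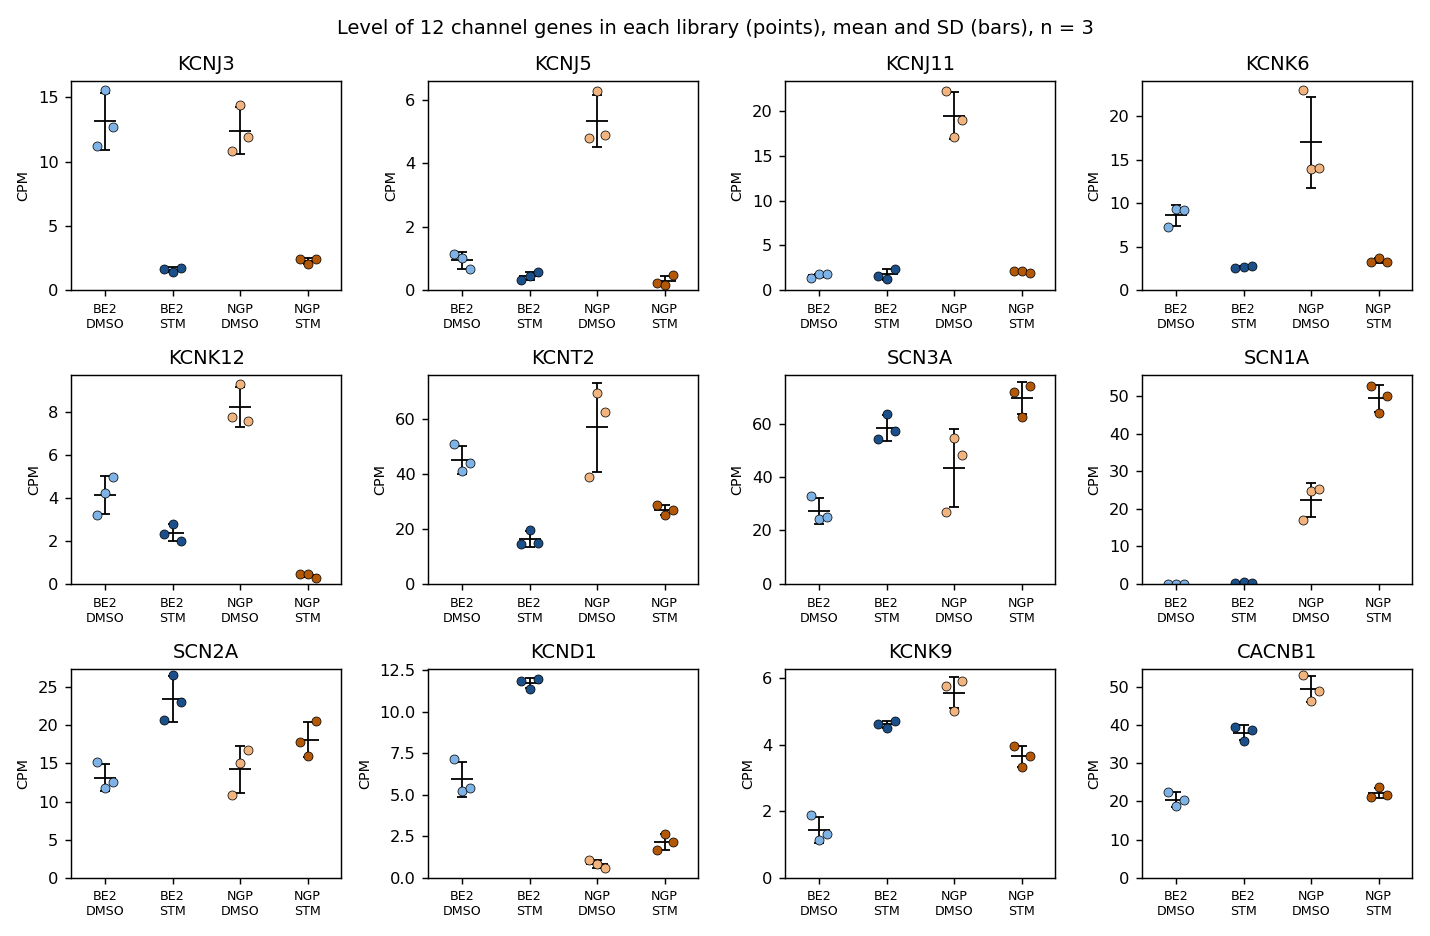
Level of 12 channel genes in CPM in each library (points, 3 per group), with the group mean and SD (bars), for SK-N-BE2 (BE2) and NGP with DMSO or STM2457 (STM). KCNJ3 and KCNK6 fall in both lines without overlap, KCNJ11 falls in NGP alone by call, KCND1 rises in both, and KCNK9 and CACNB1 move in opposite directions.

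Two-pore channels carry the potassium leak that sets the resting potential. In SK-N-BE2 3 of 9 were called higher and 3 lower, and in NGP 0 of 6 tested were called higher and 4 lower. The SK-N-BE2 counts lay near the shares over all genes tested (26.9% higher and 27.8% lower), which in NGP were 19.4% and 22.2%. KCNK6, a close relative of the weak leak channel KCNK1 (chromosome 19, 38319845 to 38332076, plus strand), measured 7.22, 9.32 and 9.22 CPM with DMSO and 2.51, 2.64 and 2.78 CPM under STM2457 in SK-N-BE2 and 23.0, 13.9 and 14.0 CPM with DMSO and 3.25, 3.70 and 3.19 CPM under STM2457 in NGP. Every STM2457 library lay below every DMSO library of its line, and NGP DMSO replicate 1 was the highest. The log2 fold changes were -1.74 ± 0.16 (SE, adjusted edgeR p 1.16e-06) and -2.35 ± 0.22 (SE, adjusted edgeR p 0.000114). KCNK12, a subunit that gives little current by itself, measured 7.78, 9.29 and 7.60 CPM with DMSO and 0.470, 0.471 and 0.296 CPM under STM2457 in NGP, a log2 fold change of -4.34 ± 0.24 (SE, adjusted edgeR p 9.32e-06). In SK-N-BE2 it measured 3.22, 4.25 and 4.97 CPM with DMSO and 2.35, 2.81 and 2.02 CPM under STM2457, a smaller change without overlap of -0.83 ± 0.21 (SE, adjusted edgeR p 0.00443). KCNK15, a relative of the acid-sensitive leak channels, fell in SK-N-BE2 from 1.63 ± 0.354 to 0.358 ± 0.194 CPM and in NGP from 2.15 ± 0.266 to 0.167 ± 0.0409 CPM (SD, n = 3). Its log2 fold changes were -2.21 and -3.69 (adjusted edgeR p 0.000426 and 7.69e-05), and 22.4% of its exon length is shared with other genes, so its values are uncertain. The KCNK6 window lies at chr19:38319595-38319894 (plus strand) and holds a GC box, as CCGCCC, at base 205.
KCNK6: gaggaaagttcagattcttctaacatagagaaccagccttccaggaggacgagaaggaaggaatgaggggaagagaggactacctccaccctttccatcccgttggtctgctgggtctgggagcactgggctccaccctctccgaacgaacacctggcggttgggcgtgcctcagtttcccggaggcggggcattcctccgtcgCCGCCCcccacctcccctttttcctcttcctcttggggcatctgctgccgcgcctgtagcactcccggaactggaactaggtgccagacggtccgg

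Among the acid-sensitive leak channels the lines went opposite ways for KCNK9. It measured 1.89, 1.13 and 1.30 CPM with DMSO and 4.62, 4.51 and 4.70 CPM under STM2457 in SK-N-BE2 and 5.76, 5.03 and 5.91 CPM with DMSO and 3.95, 3.34 and 3.65 CPM under STM2457 in NGP. The groups did not overlap in either line, with log2 fold changes of 1.64 ± 0.21 (SE, adjusted edgeR p 2.84e-05) and -0.63 (adjusted edgeR p 0.0143). The NGP call was lost without DMSO replicate 3 or STM2457 replicate 2 or 3 (adjusted edgeR p up to 0.0585). KCNK3, the closest relative of KCNK9 and the two-pore channel with the highest RPKM in both lines, was called in neither (-0.12 and 0.12, adjusted edgeR p 0.343 and 0.497). KCNK1 rose in SK-N-BE2 (0.68, adjusted edgeR p 7.44e-05), as did KCNK10 (0.34, adjusted edgeR p 0.0208), whose call was lost without DMSO replicate 3 or STM2457 replicate 1 (adjusted edgeR p up to 0.0797). KCNK2 and KCNK5 were not called in SK-N-BE2 and were too low to test in NGP.

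Some Kv7 channels carry the M-current, which damps repeated firing. In SK-N-BE2 1 of 5 Kv7 pores was called higher and 4 lower, and in NGP 0 of 4 tested were called higher and 2 lower. KCNQ3 rose in SK-N-BE2 from 0.280, 0.201 and 0.306 to 0.923, 0.781 and 0.419 CPM (1.38, adjusted edgeR p 0.0148), a call lost without STM2457 replicate 1 or 2 (adjusted edgeR p up to 0.0845). It was not called in NGP (-0.54, adjusted edgeR p 0.0879). KCNQ1 fell in SK-N-BE2 from 1.71, 1.75 and 1.72 to 0.369, 0.469 and 0.247 CPM (-2.29, adjusted edgeR p 4.79e-05), without overlap. KCNQ5 was called lower in both lines (-0.35 and -0.68), with the NGP call lost without DMSO replicate 2 or 3 or STM2457 replicate 1, 2 or 3 (adjusted edgeR p up to 0.0803) and 12.0% of its exon length shared with another gene.

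Ether-a-go-go channels include KCNH2 and a group of slower potassium pores. In SK-N-BE2 5 of 7 tested were called higher and 0 lower, and in NGP 1 of 7 was called higher and 3 lower. KCNH2, the most abundant, measured 319, 321 and 361 CPM with DMSO and 552, 465 and 501 CPM under STM2457 in SK-N-BE2 (0.56, SE 0.09, adjusted edgeR p 0.0002). Its NGP libraries overlapped at 236, 196 and 209 CPM with DMSO and 185, 219 and 177 CPM under STM2457 (-0.17, adjusted edgeR p 0.271). KCNH5 rose in SK-N-BE2 from 8.37, 6.50 and 6.90 to 23.5, 27.8 and 22.4 CPM, a log2 fold change of 1.72 ± 0.13 (SE, adjusted edgeR p 1.83e-07), the highest of its family there. KCNH3, a forebrain pore, fell in NGP from 2.78, 2.56 and 2.0 to 0.384, 0.727 and 0.177 CPM, a log2 fold change of -2.54 ± 0.44 (SE, adjusted edgeR p 0.00225) that was -3.12 without STM2457 replicate 2. KCNH8 and KCNH1 were higher in SK-N-BE2 (0.48 and 0.54) and lower in NGP (-0.69 and -0.63) by call. The KCNH1 calls were lost in SK-N-BE2 without DMSO replicate 3 (adjusted edgeR p 0.0589) and in NGP without DMSO replicate 2 or 3 or STM2457 replicate 1, 2 or 3 (adjusted edgeR p up to 0.102), and 40.9% of its exon length is shared with another gene. KCNH4 rose in SK-N-BE2 (0.56, adjusted edgeR p 0.00175). KCNH6 was called higher in NGP (0.74, adjusted edgeR p 0.0492), a call lost without DMSO replicate 2 or 3 or STM2457 replicate 1, 2 or 3 (adjusted edgeR p up to 0.155).

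Pores of the Kv1 to Kv4 families repolarise the membrane after a spike. In SK-N-BE2 2 of 10 were called higher and 4 lower, and in NGP 3 of 8 tested were called higher and 4 lower. The SK-N-BE2 counts lay near the shares over all genes tested (26.9% higher and 27.8% lower). In NGP those shares were 19.4% and 22.2%. KCND1, an A-type pore (chromosome X, 48961378 to 48971844, minus strand), measured 7.13, 5.21 and 5.41 CPM with DMSO and 11.8, 11.4 and 12.0 CPM under STM2457 in SK-N-BE2 and 1.05, 0.822 and 0.564 CPM with DMSO and 1.69, 2.65 and 2.17 CPM under STM2457 in NGP. It rose without overlap in both lines, with log2 fold changes of 0.95 ± 0.14 (SE, adjusted edgeR p 7.23e-05) and 1.39 ± 0.31 (SE, adjusted edgeR p 0.0079). KCNC1, a fast delayed rectifier, rose in both as well, from 16.3, 11.7 and 15.3 to 30.6, 25.8 and 28.2 CPM in SK-N-BE2 and from 31.6, 27.8 and 28.7 to 42.2, 43.8 and 42.4 CPM in NGP (adjusted edgeR p 3.49e-05 and 0.00416). KCNC4 fell in both lines, with log2 fold changes of -0.44 and -0.86 (adjusted edgeR p 0.0039 and 0.00281). The KCND1 window lies at chrX:48971795-48972094 (minus strand) and holds a GC box at base 233.
KCND1: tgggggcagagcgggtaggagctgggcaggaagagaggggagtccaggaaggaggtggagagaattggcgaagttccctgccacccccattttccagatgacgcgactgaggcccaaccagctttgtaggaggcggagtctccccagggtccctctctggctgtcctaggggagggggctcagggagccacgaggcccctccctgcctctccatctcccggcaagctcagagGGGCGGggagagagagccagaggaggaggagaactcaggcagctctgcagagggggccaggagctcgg

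KCNA2 fell in SK-N-BE2 from 2.38, 2.13 and 1.72 to 0.849, 1.13 and 0.647 CPM, a log2 fold change of -1.28 ± 0.28 (SE, adjusted edgeR p 0.00164). KCND2 and KCNB2 were called lower in NGP (-1.0 and -0.79) and not in SK-N-BE2, the KCNB2 call being lost without DMSO replicate 2 or 3 or STM2457 replicate 1 or 3 (adjusted edgeR p up to 0.0812). KCNA3 was not called in SK-N-BE2, and KCND3 in neither line.

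Silent Kv subunits changed most at low levels in SK-N-BE2. KCNF1 measured 0.175, 0.242 and 0.115 CPM with DMSO and 1.18, 1.23 and 0.723 CPM under STM2457 there, without overlap, a log2 fold change of 2.51 ± 0.43 (SE, adjusted edgeR p 0.000254). In NGP it measured 1.01, 0.743 and 0.739 CPM with DMSO and 1.03, 0.813 and 0.986 CPM under STM2457 and was not called (0.15, adjusted edgeR p 0.702). KCNG1, the most abundant channel transcript of NGP with DMSO, fell there from 396, 293 and 339 to 96.7, 165 and 90.3 CPM, a log2 fold change of -1.57 ± 0.23 (SE, adjusted edgeR p 0.000981). Its SK-N-BE2 libraries overlapped (-0.46, adjusted edgeR p 0.0325), and that call was lost without DMSO replicate 3 or STM2457 replicate 2 or 3 (adjusted edgeR p up to 0.207). KCNS2 fell in NGP (-1.34, adjusted edgeR p 0.00225), KCNS3 was not called there, and KCNG3 was called higher in SK-N-BE2 (1.04, adjusted edgeR p 0.0442), a call lost without DMSO replicate 1 or 3 or STM2457 replicate 1, 2 or 3 (adjusted edgeR p up to 0.153). Of the auxiliary Kv subunits, KCNAB1, KCNAB3 and KCNIP2 rose in SK-N-BE2 (0.78, 0.71 and 0.67, adjusted edgeR p from 0.000292 to 0.00289). KCNIP4 was called lower there (-0.67), a call lost without DMSO replicate 1 or 3 or STM2457 replicate 1 or 3 (adjusted edgeR p up to 0.153). KCNAB2 and KCNIP3 were not called. In NGP 0 of the 6 auxiliary genes were called by edgeR, where 41.7% of all genes tested were. Over all 8 matching auxiliary genes tested in NGP, 1 was called lower. That gene, KCNE4, lay just under the level limit and was called lower in both lines (-2.29 and -3.37, adjusted edgeR p 0.00103 and 0.00498). Exons of KCNIP2 and KCNIP4 share 13.1% and 45.1% of their length with other genes.

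Calcium- and sodium-activated potassium channels tie potassium flow to ion entry. In SK-N-BE2 1 of 8 was called higher and 2 lower, and in NGP 1 of 8 was called higher and 4 lower. KCNT2, a sodium-activated pore (chromosome 1, 196225779 to 196609225, minus strand), measured 50.9, 40.9 and 43.9 CPM with DMSO and 14.3, 19.6 and 15.0 CPM under STM2457 in SK-N-BE2 and 38.8, 69.6 and 62.4 CPM with DMSO and 28.6, 25.2 and 26.8 CPM under STM2457 in NGP. The groups were apart in both lines, with log2 fold changes of -1.51 ± 0.13 (SE, adjusted edgeR p 6.17e-07) and -1.11 ± 0.20 (SE, adjusted edgeR p 0.003). The other sodium-activated pore, KCNT1, was called in neither line (0.01 and -0.10). KCNMB4, the neuronal beta subunit of the large-conductance channel, rose from 0.769, 1.37 and 1.30 to 2.66, 3.14 and 2.86 CPM in SK-N-BE2 and from 14.2, 13.0 and 12.1 to 19.8, 19.4 and 18.0 CPM in NGP (1.30 and 0.52, adjusted edgeR p 0.000716 and 0.00895). Its pore KCNMA1 fell in NGP, from 36.1, 47.8 and 44.4 to 25.1, 22.6 and 22.5 CPM (-0.90, adjusted edgeR p 0.00107), and had no call in SK-N-BE2 (-0.18, adjusted edgeR p 0.0729). Of the small-conductance pores, KCNN1 fell in NGP (-1.44, adjusted edgeR p 0.00115) and KCNN2 in both lines (-1.15 and -0.82), with the SK-N-BE2 call lost without DMSO replicate 1 or 2 or STM2457 replicate 3 (adjusted edgeR p up to 0.0905). KCNN3 and KCNMB3 were called in neither. The KCNT2 window lies at chr1:196608391-196608690 (minus strand) and holds a GC box at base 94 and TTGCATCA, the reverse complement of the composite element TGATGCAA, at base 154.
KCNT2: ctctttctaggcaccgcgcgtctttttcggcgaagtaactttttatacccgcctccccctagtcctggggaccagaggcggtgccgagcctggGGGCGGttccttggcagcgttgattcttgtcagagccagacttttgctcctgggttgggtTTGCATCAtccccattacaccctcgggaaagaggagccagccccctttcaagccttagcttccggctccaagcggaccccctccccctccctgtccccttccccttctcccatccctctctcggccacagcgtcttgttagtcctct

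Promoter windows were found for 63 of the 93 genes, 104 windows in all. A GC box was present in 8 of the 9 windows of genes lower in both lines, in 3 of the 7 windows of genes higher in both, in 55.8% of all channel windows and in 45.0% of all 35116 promoter windows. The composite element was in 1 of the 104 channel windows, that of KCNT2, and in 0.866% of all windows. An E-box was found in 6 of the 104, 5.77%, against 7.26% of all windows, and among genes lower in both lines in that of CACNA1B. A cyclic AMP element was found in 1, that of KCNF1, against 1.85% of all windows. Such matches describe the letters only.

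Sodium pores carry the upstroke of the action potential, and in SK-N-BE2 5 of 7 were called higher and 0 lower, with a median log2 fold change of 0.94. In NGP 2 of 7 were called higher and 0 lower, with a median of 0.66. Over all genes tested the shares were 26.9% higher and 27.8% lower in SK-N-BE2, with a median of -0.02. In NGP they were 19.4% and 22.2%, with a median of -0.03. The sodium pore counts and medians were not tested against these. Over all 8 matching sodium pores tested in NGP, 2 were called higher and 1, under the level limit, lower. SCN3A, a pore of the developing nervous system, measured 33.0, 24.2 and 25.0 CPM with DMSO and 54.2, 63.6 and 57.3 CPM under STM2457 in SK-N-BE2, where the groups were apart, a log2 fold change of 1.05 ± 0.12 (SE, adjusted edgeR p 7.51e-06). In NGP it measured 26.9, 54.8 and 48.1 CPM with DMSO and 71.9, 62.6 and 74.1 CPM under STM2457. DMSO replicate 1 was the lowest of these NGP libraries, all STM2457 libraries lay above all DMSO libraries, and the change of 0.66 was not called (SE 0.23, adjusted edgeR p 0.0507).

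SCN1A rose from different levels in the lines. In NGP it measured 17.1, 24.6 and 25.3 CPM with DMSO and 52.7, 45.4 and 50.03 CPM under STM2457, a log2 fold change of 1.12 ± 0.16 (SE, adjusted edgeR p 0.000959) without overlap. In SK-N-BE2 it measured 0.105, 0 and 0 CPM with DMSO and 0.351, 0.430 and 0.381 CPM under STM2457, that is 6 reads over the DMSO libraries and 61 over the STM2457 libraries, a ratio of 10.3 with a 95% Poisson interval of 3.25 to 53.3 when 2 reads are taken as 1 fragment. The fitted log2 fold change was 3.26 ± 0.81 (SE, adjusted edgeR p 0.00378), and 7.32 without DMSO replicate 1, the library with the 6 reads. SCN2A and SCN9A rose in SK-N-BE2, from 15.1, 11.7 and 12.6 to 20.7, 26.6 and 23.0 CPM and from 15.7, 11.9 and 11.1 to 22.4, 20.1 and 23.7 CPM (0.80 and 0.74, adjusted edgeR p 0.00013 and 0.00038). Neither was called in NGP (0.32 and 0.35, adjusted edgeR p 0.186 and 0.263). SCN7A and SCN8A were called in neither line. Of the sodium pores, SCN3A, SCN2A, SCN1A, SCN9A and SCN7A lie together on chromosome 2 between 165087522 and 166611482, a span of 1524 kb. Parts of SCN9A exons, 11.4% of their length, are shared with another gene. The beta subunit SCN3B, which modulates gating, fell in NGP from 12.2, 17.9 and 14.4 to 7.82, 5.35 and 5.70 CPM (-1.26, adjusted edgeR p 0.0016) and had no call in SK-N-BE2 (-0.16, adjusted edgeR p 0.103).

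Calcium pores open on depolarisation and let in calcium. In SK-N-BE2 1 of 6 tested was called higher and 1 lower, and in NGP 0 of 7 were called higher and 4 lower. CACNA1B, the N-type pore of sympathetic neurons and the calcium pore with the highest mean RPKM in both lines with DMSO (its SK-N-BE2 libraries overlapped those of CACNA1H), measured 96.1, 86.3 and 99.5 CPM with DMSO and 59.9, 59.8 and 54.1 CPM under STM2457 in SK-N-BE2 and 146, 205 and 168 CPM with DMSO and 117, 122 and 115 CPM under STM2457 in NGP. It fell without overlap in both, with log2 fold changes of -0.73 ± 0.08 (SE, adjusted edgeR p 9.49e-06) and -0.58 ± 0.13 (SE, adjusted edgeR p 0.00827). CACNA1C went opposite ways, with 3.37, 1.77 and 3.0 CPM with DMSO and 6.35, 7.17 and 7.12 CPM under STM2457 in SK-N-BE2 and 18.6, 22.1 and 22.3 CPM with DMSO and 11.5, 12.8 and 11.4 CPM under STM2457 in NGP. Both changes were without overlap, 1.30 ± 0.21 (SE, adjusted edgeR p 0.000142) and -0.85 ± 0.13 (SE, adjusted edgeR p 0.00118). The T-type pores CACNA1H and CACNA1G fell in NGP, CACNA1H from 87.2, 91.3 and 89.5 to 25.8, 35.3 and 23.3 CPM (-1.69, adjusted edgeR p 0.000103) and CACNA1G from 7.35, 6.22 and 6.42 to 4.38, 4.09 and 4.54 CPM (-0.64, adjusted edgeR p 0.00983). Neither was called in SK-N-BE2 (-0.16 and 0.47, adjusted edgeR p 0.365 and 0.389). CACNA1D and CACNA1F were called in neither line, and CACNA1A was not called in NGP and too low to test in SK-N-BE2.

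Beta subunits bring the calcium pore to the membrane. CACNB1 measured 22.4, 18.7 and 20.4 CPM with DMSO and 39.5, 35.8 and 38.6 CPM under STM2457 in SK-N-BE2 and 53.0, 46.2 and 48.8 CPM with DMSO and 21.1, 23.8 and 21.7 CPM under STM2457 in NGP. The groups were apart in both lines and the directions opposite, 0.85 ± 0.10 (SE, adjusted edgeR p 8.66e-06) and -1.18 ± 0.11 (SE, adjusted edgeR p 9.63e-05). CACNB3, a common neuronal partner of N-type pores, showed the same pattern with a smaller NGP change, from 17.3, 16.3 and 19.6 to 35.7, 33.2 and 36.6 CPM (0.95, adjusted edgeR p 3.97e-06) and from 44.2, 35.9 and 42.6 to 33.4, 33.8 and 32.4 CPM (-0.33, adjusted edgeR p 0.0457). Its NGP call was lost without DMSO replicate 3 or STM2457 replicate 1, 2 or 3 (adjusted edgeR p up to 0.162). CACNB4 was called higher in NGP (0.48, adjusted edgeR p 0.0483), from 3.85, 5.30 and 4.84 to 6.64, 6.59 and 6.63 CPM without overlap, and that call was lost without DMSO replicate 1 or 3 or STM2457 replicate 1, 2 or 3 (adjusted edgeR p up to 0.132). CACNB2 was called in neither line. Of the alpha2delta subunits, CACNA2D3 and CACNA2D1 fell in NGP (-1.97 and -0.81, adjusted edgeR p 0.000924 and 0.00607) and were not called in SK-N-BE2. CACNA2D2 was called higher in both lines (0.34 and 0.35), calls lost in SK-N-BE2 without STM2457 replicate 2 (adjusted edgeR p 0.0669) and in NGP without DMSO replicate 3 or STM2457 replicate 1 or 3 (adjusted edgeR p up to 0.0751). The 4 gamma subunits CACNG4, CACNG5, CACNG7 and CACNG8 were called in neither line, with CACNG4 at 188 ± 2.73 and 188 ± 12.5 CPM in SK-N-BE2 (SD, n = 3).

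HCN channels open on hyperpolarisation. HCN4 fell from 0.280, 0.564 and 0.268 to 0.0739, 0 and 0.0761 CPM in SK-N-BE2 and from 9.73, 10.4 and 10.5 to 6.84, 6.16 and 5.88 CPM in NGP. All STM2457 libraries lay below all DMSO libraries, with log2 fold changes of -2.84 ± 0.73 (SE, adjusted edgeR p 0.00496) and -0.72 ± 0.14 (SE, adjusted edgeR p 0.00339). HCN3 rose in SK-N-BE2, from 4.37, 3.52 and 4.61 to 10.1, 8.05 and 9.12 CPM (1.09, adjusted edgeR p 4.51e-05). HCN3 had no call in NGP (-0.06, adjusted edgeR p 0.823) and shares 13.1% of its exon length with another gene. HCN2 was called in neither line.

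The difference between the responses was tested directly, as SK-N-BE2 minus NGP over all 12 libraries. All 93 genes could be tested, and 31 had a response called more positive in SK-N-BE2 and 5 one called more positive in NGP, where 30.9% of all 14731 genes tested were called, 17.0% and 13.9% in these directions. Among genes at the same minimum level 33.1% were called, 18.3% and 14.8%, and over all 109 matching genes tested it was 33 and 5. The median difference was 0.43 on the log2 scale over the channel genes and 0.02 over all genes tested. With upper-quartile scaling the 5 became 8, as they did without NGP DMSO replicate 2. The responses cover 12 µM in one line and 1 µM in the other, so a dose effect cannot be told apart from the line.

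Among differences toward SK-N-BE2 the highest were those of KCNK12 (3.53, SE 0.33), KCNJ11 (3.33, SE 0.31) and KCNJ5 (3.08, SE 0.50), with adjusted edgeR p from 4.16e-06 to 0.000426. KCNK12 and KCNJ5 were called lower in both lines, with the larger fold change in NGP, and KCNJ11 was called lower in NGP and not in SK-N-BE2. All 7 genes with opposite calls were called in the test of the difference. That test uses the same libraries as the opposite calls, so its outcome for these genes was nearly fixed and adds no support. Among the 7, KCNH1, KCNH8, KCNK9, CACNA1C, CACNB3 and CACNB1 were higher by call in SK-N-BE2 but lower in NGP. CACNB1 had the smallest p among them, with a difference of 2.04 ± 0.14 (SE, adjusted edgeR p 4.21e-07), followed by CACNB3 (1.29, adjusted edgeR p 2.38e-05), KCNK9 (2.28, adjusted edgeR p 3.14e-05) and CACNA1C (2.16, adjusted edgeR p 3.39e-05). Of the 20 genes called in the same direction in both lines, 7 were also called in the difference test, among them SCN1A, KCNMB4, KCNK12, KCNJ5, KCNG1 and HCN4. The matching share over all genes was not taken, and 33.1% of all genes at the same minimum level were called in that test. The count is therefore not read as particular to the channel genes. The SCN1A call was lost without SK-N-BE2 DMSO replicate 2 or 3 or SK-N-BE2 STM2457 replicate 2 (adjusted edgeR p up to 0.104), the KCNMB4 call without SK-N-BE2 DMSO replicate 1 or SK-N-BE2 STM2457 replicate 2 or NGP STM2457 replicate 3 (adjusted edgeR p up to 0.0627) and the KCNG1 call without SK-N-BE2 STM2457 replicate 1 or NGP STM2457 replicate 1 (adjusted edgeR p up to 0.057).

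**Figure D4:**
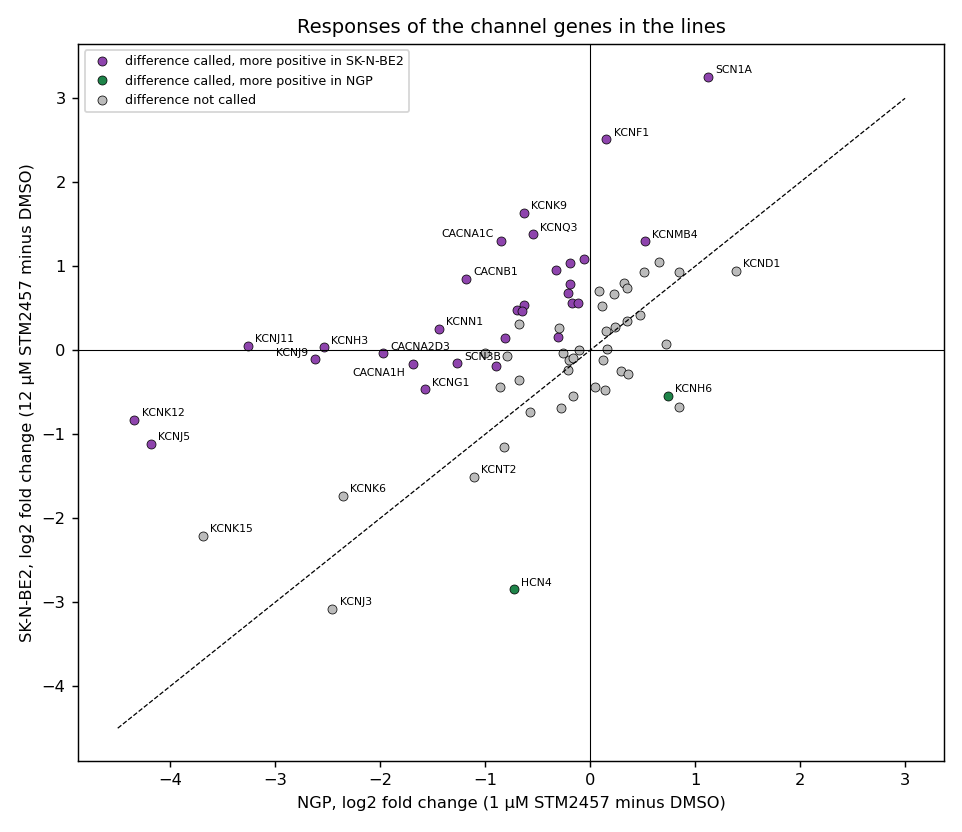
Log2 fold change with STM2457 in NGP at 1 µM (horizontal axis) and SK-N-BE2 at 12 µM (vertical axis) for the channel genes described here and tested in both lines. Purple points had a difference called more positive in SK-N-BE2, green points more positive in NGP, grey points no called difference, and the dashed line marks equal responses. KCNK12, KCNJ5 and KCNJ11 lie far to the left, KCNJ3 and KCNK6 near the dashed line, and KCNK9, CACNA1C and CACNB1 at the upper left.

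Genes that bind, scaffold or regulate these channels, or are related cation channels or pumps, were taken as a list of 57, of which 56 were in the files. The counts below cover this mixed list and not channel partners alone. In SK-N-BE2 43 were tested, 15 called higher and 13 lower, and in NGP 41 were tested, 9 called higher and 13 lower. That is 65.1% and 53.7% called, where 54.7% and 41.7% of all genes tested were. The medians over the list were 0.09 and -0.13 on the log2 scale. ABCC8, the receptor that pairs with KCNJ11, fell in SK-N-BE2 from 5.02, 3.22 and 3.19 to 1.44, 1.35 and 1.54 CPM (-1.44, adjusted edgeR p 0.000146) and in NGP from 13.0, 15.5 and 11.1 to 6.86, 8.13 and 7.06 CPM (-0.87, adjusted edgeR p 0.00329). NALCN, the sodium leak channel, fell in NGP from 13.4 ± 4.63 to 1.57 ± 0.268 CPM (log2 fold change -3.12, adjusted edgeR p 8.89e-05), and STAC2, an adaptor of L-type channels, from 69.2 ± 6.95 to 3.43 ± 1.28 CPM (log2 fold change -4.36, adjusted edgeR p 9.96e-06). The proton channel HVCN1 fell in SK-N-BE2 (-1.94, adjusted edgeR p 0.000782), and CNTNAP2, which clusters Kv1 channels, rose there (1.40, adjusted edgeR p 0.0172). ABCC9 was called higher in NGP from a level near 0 (0, 0.0782 and 0 to 0.214, 0.428 and 0.276 CPM).

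METTL3 methylates adenosines within a short consensus, for which the letters GGACT were counted in 1 transcript per gene. The median was 0.969 matches per kb over the 93 channel genes and 0.926 over all genes at the same minimum level. Channel genes called lower had medians of 1.15 (SK-N-BE2) and 1.16 (NGP), those called higher 0.825 and 0.889, and those not called 0.994 and 0.939. Over all genes the corresponding medians were 0.935 and 0.935 for lower, 0.921 and 0.944 for higher and 0.921 and 0.916 for not called. These are counts of letters, not of methylated sites, and no test was made of them.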

How the data were processed

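RNA of 12 samples was measured as read counts per gene. The authors deposited whole-number counts, made with featureCounts 2.0.5 over exons of GENCODE 33 protein-coding genes grouped by gene name, per the file headers, which give no strand option and no counting of read pairs. Per the submitters' processing notes, the tools were HISAT2 2.1.0, Trimmomatic 0.36, FastQC 0.11.5 and Subread 1.5.3 and the build was GRCh38. Between 72.1% and 75.4% of low counts were even, so a fragment often counted as more than 1 read, and genes that share exons cannot be told apart by strand. Low counts hold fewer fragments than reads.

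Each library held 47242379 to 58159937 reads. Counts were tested with edgeR 4.0.16 in R 4.3.3 (filterByExpr with a minimum count of 10, TMM scaling, quasi-likelihood test, Benjamini-Hochberg adjustment over all genes tested, threshold 0.05). Each line was fitted on its own 6 libraries, the baseline on the 6 DMSO libraries and the difference between responses on all 12. The fit was tested on simulated data. CPM used TMM scaling over the 12 libraries, and RPKM the exon length in the files. The members and gene lists were chosen with earlier results of these data known. Genes named first were, per comparison and direction, the 8 called genes with the largest change and libraries without overlap (6 for the line difference), and other members follow for completeness. Alternatives were other scaling (DESeq2 1.42.0 size factors, upper quartile), other filters, the DESeq2 Wald test, robust dispersion, halved counts, a joint fit, a replicate block, leaving out each library, and other level limits. Some members and 1 marker are counted in the totals and not reported here by name or in the figures. SPTBN4, on the list of partner and related genes, was not found by symbol.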

Additional observations from a re-analysis of the deposited data

Results flagged for a closer look

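For 9 channel genes the interaction test, which takes the NGP response at 1 µM from the SK-N-BE2 response at 12 µM, picked out values that a reader may want to look at again. Toward SK-N-BE2 they were KCNK12 (3.53 on the log2 scale), KCNJ11 (3.33), KCNJ5 (3.08), KCNH3 (2.59), KCNJ9 (2.52) and KCNF1 (2.37). Toward NGP they were KCNJ10 (-4.40), HCN4 (-2.10) and KCNH6 (-1.27). Of the first 6, KCNJ11, KCNJ5 and KCNJ9 are inward rectifiers, and KCNK12, KCNJ5, KCNJ11, KCNH3 and KCNJ9 fell in NGP. KCNF1 rose in SK-N-BE2 from under 1 CPM. KCNJ10 had under 0.2 CPM in each NGP DMSO library, so its difference rests on few reads there.

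Without 1 library the KCNH3 difference was 3.20 (without NGP STM2457 replicate 2), that of KCNJ9 3.10 (without NGP STM2457 replicate 3) and that of KCNJ10 -5.11 (without NGP DMSO replicate 2). These are the largest values. Over all alternatives run the difference ranged from 2.21 to 3.20 for KCNH3, from 2.28 to 3.10 for KCNJ9 and from -5.11 to -3.97 for KCNJ10. Line, dose and any batch that follows the line cannot be told apart in these differences.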

How the results depend on the processing

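No called channel gene and no count changed direction under the alternatives run. Counts of called channel genes stayed within 1.5 times of those reported under all alternatives except the following. In NGP the count of higher genes was 5 without STM2457 replicate 1 or 3 and ran from 5 to 12 over the 6 fits without a library. In the difference between the responses, the genes more positive in NGP numbered 8 with upper-quartile factors, where 5 were reported, and ran from 4 to 8 over the 12 fits without a library, with 8 without NGP DMSO replicate 2. Leaving out a library gave 26 to 31 higher and 18 to 22 lower genes in SK-N-BE2, 29 to 41 lower genes in NGP, 27 to 38 genes more positive in SK-N-BE2, and at baseline 30 to 33 higher and 42 to 45 lower. The number of genes at the level limit ran from 84 with 2 CPM to 103 with 0.5 CPM. In the joint fit of all 12 libraries the SK-N-BE2 calls of KCNQ5, KCNJ14, KCNK10, KCNIP4 and KCNG1 were lost (adjusted edgeR p 0.127, 0.133, 0.242, 0.129 and 0.155). KCNG1 was lost there also with the DESeq2 Wald test (adjusted p 0.154) and robust dispersion (0.0994), and KCNG3 with the Wald test (0.051), upper-quartile factors (0.0528) and no filter (0.0511). In NGP CACNB4 and CACNB3 were lost with no filter (adjusted edgeR p 0.0562 and 0.056), CACNB3 with DESeq2 size factors (0.0542) and KCNH6 with a minimum mean of 1 CPM (0.0515). Upper-quartile factors ended the line difference of CACNA1G (0.0537) and the baseline call of SCN3A (0.0522).

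The replicate number as a block gave 29 higher and 20 lower genes in SK-N-BE2, 8 and 34 for NGP, 30 and 4 for the difference and 30 and 42 at baseline. Same-numbered libraries did not deviate together (correlations of -0.185, 0.155 and 0.027 for SK-N-BE2, -0.002, -0.239 and 0.130 for NGP, and -0.564, -0.194 and -0.185 at baseline), so the numbers are not taken to pair the libraries. Among the calls past the threshold only without the block were KCNIP4 in SK-N-BE2 (blocked adjusted edgeR p 0.0503), CACNB4, CACNB3 and CACNA2D2 in NGP (0.0753, 0.096 and 0.054), the line difference of SCN1A (0.0703) and KCNAB2, SCN3A and KCNMA1 at baseline (0.0885, 0.0871 and 0.0571). Depth limits the called genes with a group mean under 1 CPM, which numbered 11 in SK-N-BE2 (KCNA2, KCNJ10, KCNF1, KCNG3, SCN1A, KCNN2, KCNQ3, KCNQ1, KCNJ5, HCN4 and KCNK15) and 8 in NGP (KCNJ9, KCNK12, CACNA2D3, KCNJ5, KCNH3, KCNK15, KCNJ4 and KCND1).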
